A study of Mus musculus with 20 samples.

Results

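Klf2, Klf5, Tfcp2l1, Tbx3, Prdm14, Nr0b1, Zfp42, Nr5a2 and Foxd3 are transcription regulators of naive mouse pluripotency, and they were chosen as a list of 9 named genes. All 9 were found among the 27161 genes that could be tested, through 11 of the 55681 probes on the array. A probe was found under the gene's own name for 8 of them, and Tfcp2l1 was found by its RefSeq accession under its older name Tcfcp2l1. All 11 probes were well above background on 20 of 20 arrays, so no member was gained or lost by the filter on dim probes.

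Mouse induced pluripotent stem cell (iPSC) lines were compared with embryonic stem cell (ESC) lines on 20 one-colour Agilent arrays, with 2 arrays for each of 10 lines. The iPSC lines were made either with Sall4, Nanog, Esrrb and Lin28 (SNEL) or with Oct4, Sox2, Klf4 and Myc (OSKM). Of the 3 SNEL lines, Oct4-GFP SNEL#1 and Nanog-GFP SNEL#2 were graded high, while Nanog-GFP SNEL#3 was graded good. The 4 OSKM lines were BC_2 OSKM, graded good, and KH2_OSKM, Nanog-GFP OSKM#2 and Oct4-GFP OSKM#2, all graded poor. The 3 ESC lines were Nanog-GFP ESCs, Oct4-GFP ESCs and KH2 ESCs, where Nanog-GFP and Oct4-GFP name fluorescent reporters of those genes. All lines were grown without treatment in 2i medium, which holds inhibitors of MEK and GSK3, and without feeder cells. The labels do not state how the grade was measured or whether a line's 2 arrays hold RNA of separate cultures. P-values between lines therefore measure only the spread between arrays, which may be technical, and compare those lines rather than the conditions. Every poor line was an OSKM line, so grade and factor set cannot be fully told apart.

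Naive pluripotency is the state of the preimplantation epiblast, and in culture it is held by LIF signalling through Stat3 and by the inhibitors of 2i medium. Klf2 and Klf5 are Krüppel-like zinc-finger factors that share targets with Klf4. Tfcp2l1 and Tbx3 carry the LIF signal into the network, Prdm14 represses de novo DNA methyltransferases and FGF signalling, and Nr5a2 and Nr0b1 are orphan nuclear receptors. Zfp42, also called Rex1, is a zinc-finger protein widely used as a marker of the naive state although cells can do without it. Foxd3 is a forkhead factor that keeps ESCs from differentiating and takes part in the exit from the naive state.

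The sequences before the transcription start are shown for 3 members whose level spread widely over the lines, since their RNA is what varied most among the members with a RefSeq promoter window (build GRCm38.p6). Each run gives the 250 bases before the start, 5′ to 3′ on the gene's strand. Capitals mark matches on either strand to ATTTGCAT, the octamer bound by Oct4, and to CCACCC, the box bound by Krüppel-like factors, and no match of one overlaps a match of the other.
Foxd3, chr4:99656049-99656298, plus strand: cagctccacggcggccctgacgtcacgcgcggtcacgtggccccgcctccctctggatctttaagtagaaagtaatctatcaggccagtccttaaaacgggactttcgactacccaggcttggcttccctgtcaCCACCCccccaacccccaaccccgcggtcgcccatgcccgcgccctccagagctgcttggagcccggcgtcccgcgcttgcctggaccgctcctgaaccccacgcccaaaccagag
Nr0b1, chrX:86191525-86191774, plus strand: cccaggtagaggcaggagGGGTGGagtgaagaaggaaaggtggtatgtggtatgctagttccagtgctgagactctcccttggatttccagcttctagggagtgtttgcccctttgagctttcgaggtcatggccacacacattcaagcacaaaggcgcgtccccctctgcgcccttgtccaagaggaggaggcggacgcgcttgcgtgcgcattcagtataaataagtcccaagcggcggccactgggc
Zfp42, chr8:43307010-43307259, minus strand: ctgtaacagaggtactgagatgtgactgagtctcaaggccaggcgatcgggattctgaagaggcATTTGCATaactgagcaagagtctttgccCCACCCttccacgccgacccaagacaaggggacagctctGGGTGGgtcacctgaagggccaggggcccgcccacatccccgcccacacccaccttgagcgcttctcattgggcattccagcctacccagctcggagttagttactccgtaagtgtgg

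The Zfp42 window held 1 octamer, 186 to 179 bases before the start, and 2 CCACCC boxes. Of 32851 promoter windows of the same length, 1.6% held ATTTGCAT and 28.1% held CCACCC. Among the 7 windows of the 6 members in the table, 1 held the octamer and 5 held the box. Neither TCAAGGTCA, the element bound by Esrrb and Nr5a2, nor TTCCNGGAA, a Stat3 element, was found in the 7 windows, against 0.387% and 0.913% of all windows. A missing match says only that these letters are not in the window.

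Levels are given as log2 signal minus the array's 75th percentile, so that a difference of 1 is a 2-fold change, and levels of different probes are not compared. All 9 members differed among the 10 lines (moderated F test of limma on 20 arrays, adjusted p from 1.11e-09 for Zfp42 to 0.00147 for Klf5). That test called 61.5% of all genes, so 9 of 9 is to be read against a large background. The standard deviation over the 10 line means had a median of 0.35 in the members and 0.36 in all genes. Of the 45 pairs of lines, a median of 28 differed for a member and 13 for all genes. All members were well above background on all 20 arrays, but only 18490 of the 27161 genes were. The part of detection and array noise in these counts was not tested. Since bulk RNA was measured, fewer cells of a type and less RNA per cell cannot be told apart.

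**Figure D1:**
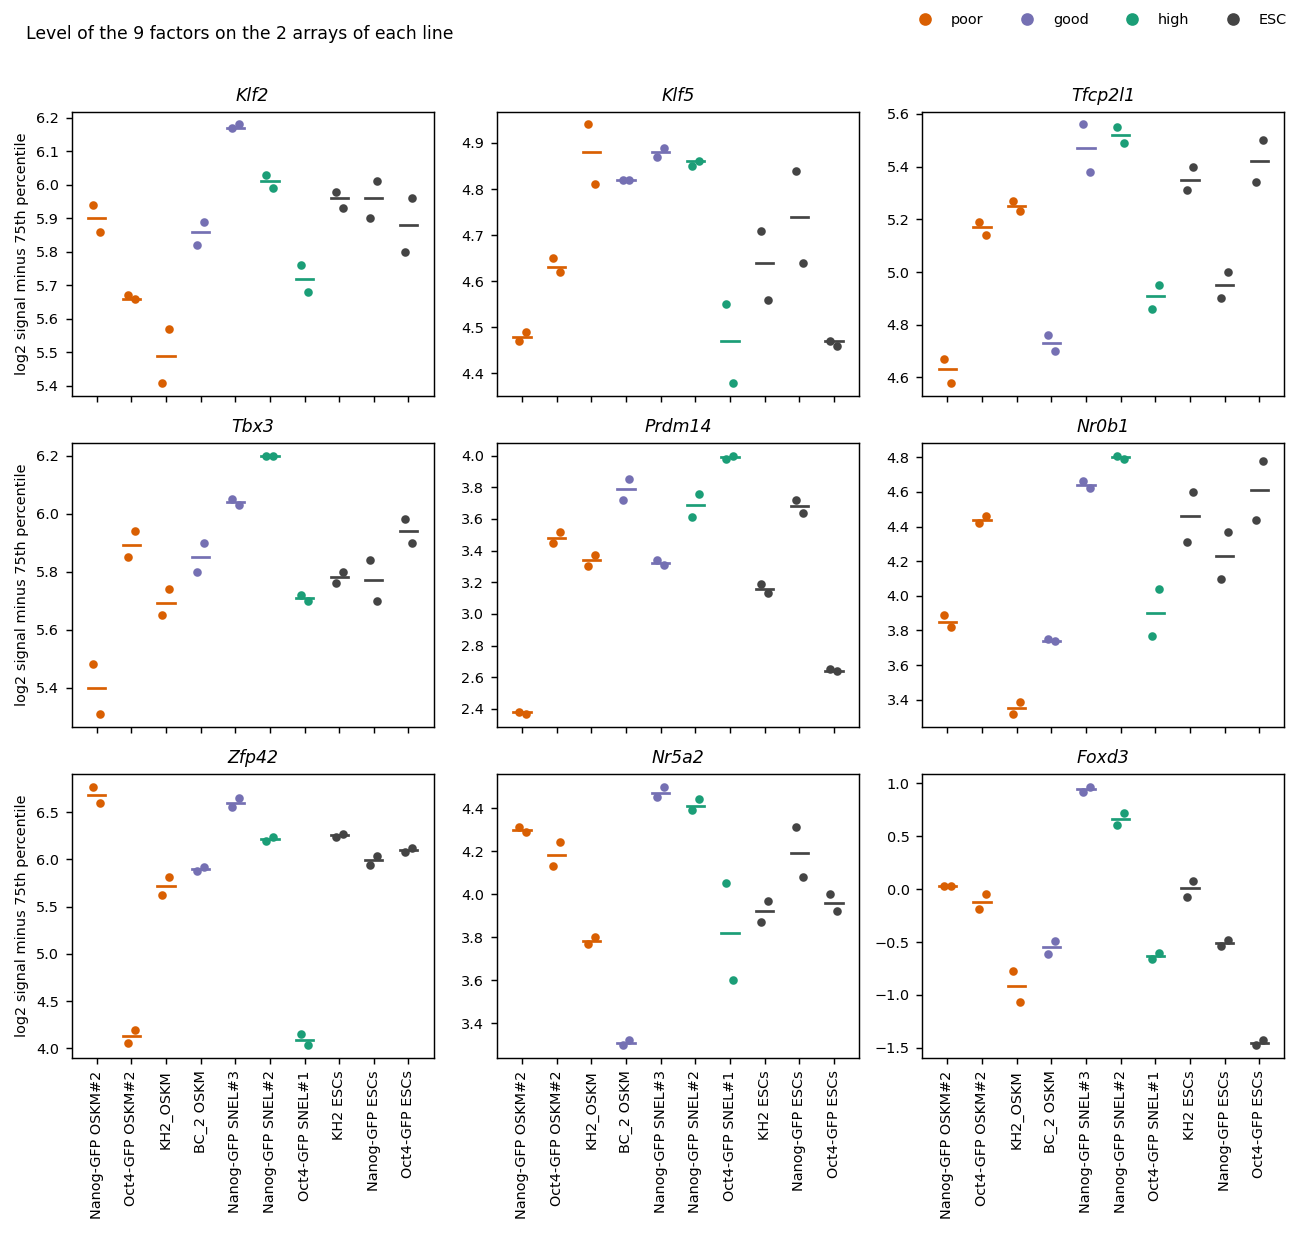
Each panel shows 1 factor, with its level (log2 signal minus the array's 75th percentile) on the vertical axis and the 10 lines along the horizontal axis, coloured by grade. Points are the 2 arrays of a line and bars their mean, and the vertical scale differs between panels. Zfp42 lies near 4.1 in both Oct4-GFP iPSC lines and at 5.72 or above in the other lines.

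Zfp42 had the widest range of the 9, 6.02-fold between the highest and the lowest line. Its level was 6.22 in Nanog-GFP SNEL#2, 6.60 in Nanog-GFP SNEL#3 and 4.09 in Oct4-GFP SNEL#1. It was 6.68 in Nanog-GFP OSKM#2, 4.13 in Oct4-GFP OSKM#2, 5.72 in KH2_OSKM and 5.90 in BC_2 OSKM, against 5.99, 6.10 and 6.26 in Nanog-GFP, Oct4-GFP and KH2 ESCs. The 2 Oct4-GFP iPSC lines, 1 made with each factor set, were thus low on all 4 of their arrays (4.04 to 4.19), and the ESC line of that reporter was not. In the order of levels, KH2_OSKM and Oct4-GFP OSKM#2 were neighbours that differed by 1.59 (adjusted p = 5.25e-08), while the 2 low lines differed from each other by 0.03 (adjusted p = 0.859). Nanog-GFP SNEL#3 and KH2 ESCs also differed (0.34, adjusted p = 0.012), and the other neighbours in the order did not pass the test.

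Foxd3 ranged over 5.27-fold and was ordered differently. It stood at 0.66 in Nanog-GFP SNEL#2, 0.95 in Nanog-GFP SNEL#3 and -0.63 in Oct4-GFP SNEL#1. OSKM lines gave 0.03 (Nanog-GFP OSKM#2), -0.12 (Oct4-GFP OSKM#2), -0.92 (KH2_OSKM) and -0.55 (BC_2 OSKM), against -0.51, -1.45 and 0.01 in Nanog-GFP, Oct4-GFP and KH2 ESCs. Its lowest line was therefore an ESC line, Oct4-GFP ESCs, which differed from all 9 other lines and lay below every iPSC line. Neighbours in the order differed in 4 of 9 cases, the widest being Nanog-GFP SNEL#2 over Nanog-GFP OSKM#2 (0.63, adjusted p = 0.000277).

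Prdm14, whose loss in ESCs is known to let de novo methylation genes rise, ranged over 3.07-fold. It measured 3.69 in Nanog-GFP SNEL#2, 3.32 in Nanog-GFP SNEL#3 and 3.99 in Oct4-GFP SNEL#1. OSKM lines had 2.38 (Nanog-GFP OSKM#2), 3.48 (Oct4-GFP OSKM#2), 3.34 (KH2_OSKM) and 3.79 (BC_2 OSKM), against 3.68, 2.64 and 3.16 in Nanog-GFP, Oct4-GFP and KH2 ESCs. Nanog-GFP OSKM#2 and Oct4-GFP ESCs were the 2 low lines, and each differed from its neighbour in the order (0.27 between them, adjusted p = 0.011, and 0.52 to KH2 ESCs, adjusted p = 0.00036). Of the de novo methyltransferase genes, Dnmt3b was at 5.86 in Nanog-GFP OSKM#2 and 4.49 in Oct4-GFP ESCs. It was at 5.43 in Nanog-GFP SNEL#3, 5.44 in KH2 ESCs, 5.18 in Oct4-GFP OSKM#2 and 4.66 in Nanog-GFP SNEL#2. In Nanog-GFP ESCs, Oct4-GFP SNEL#1, KH2_OSKM and BC_2 OSKM it was at 3.51, 3.27, 2.69 and 2.20. Dnmt3a was at -0.40 in Nanog-GFP OSKM#2 and -0.99 in Oct4-GFP ESCs, within a range over all lines of -1.24 to 0.14. A link of these genes to the Prdm14 level was not tested.

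Nr0b1, an X-linked gene whose product binds other nuclear receptors and also Oct4, ranged over 2.72-fold. Its level was 4.80 in Nanog-GFP SNEL#2, 4.64 in Nanog-GFP SNEL#3 and 3.90 in Oct4-GFP SNEL#1. In OSKM lines it was 3.85 (Nanog-GFP OSKM#2), 4.44 (Oct4-GFP OSKM#2), 3.35 (KH2_OSKM) and 3.74 (BC_2 OSKM), against 4.23, 4.61 and 4.46 in Nanog-GFP, Oct4-GFP and KH2 ESCs. KH2_OSKM was lowest and differed from 8 of the 9 other lines, and no neighbouring pair in the order passed the test. The 4 lines with an array on the third slide were each higher there, by 0.26 to 0.33. The median deviation of X-linked genes ran from -0.05 to 0.07 over the lines. The Y-linked gene Ddx3y was at -8.08 in Nanog-GFP ESCs, -2.50 in KH2_OSKM and -2.85 in BC_2 OSKM, and between -1.0 and 1.21 in the other 7 lines. The part of sex chromosomes in the Nr0b1 level was not tested, and Xist was not among the genes tested.

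Nr5a2, a receptor that binds regulatory DNA of the Oct4 gene, ranged over 2.23-fold. SNEL lines had 4.41 (Nanog-GFP SNEL#2), 4.47 (Nanog-GFP SNEL#3) and 3.82 (Oct4-GFP SNEL#1). OSKM lines had 4.30 (Nanog-GFP OSKM#2), 4.18 (Oct4-GFP OSKM#2), 3.78 (KH2_OSKM) and 3.31 (BC_2 OSKM), against 4.19, 3.96 and 3.92 in Nanog-GFP, Oct4-GFP and KH2 ESCs. BC_2 OSKM lay below all 9 other lines and was the only line that differed from its neighbour (0.47, adjusted p = 0.0194). The 2 arrays of Oct4-GFP SNEL#1 were 0.44 apart, the widest gap between arrays for any member. A second Nr5a2 probe followed the first less closely (Pearson r = 0.62 over the 10 lines) and ranged over 0.60.

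Tfcp2l1 ranged over 1.86-fold. It reached 5.52 in Nanog-GFP SNEL#2 and 5.47 in Nanog-GFP SNEL#3 and was 4.91 in Oct4-GFP SNEL#1. The OSKM values were 4.63 (Nanog-GFP OSKM#2), 5.17 (Oct4-GFP OSKM#2), 5.25 (KH2_OSKM) and 4.73 (BC_2 OSKM), against 4.95, 5.42 and 5.35 in Nanog-GFP, Oct4-GFP and KH2 ESCs. No neighbours in the order differed, although Nanog-GFP OSKM#2 differed from 8 of the 9 other lines. The second Tfcp2l1 probe followed the first closely (r = 0.94) with other extremes, its highest line being Nanog-GFP SNEL#3 (4.53) and its lowest BC_2 OSKM (3.33).

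Tbx3 ranged over 1.75-fold. It was 6.20 in Nanog-GFP SNEL#2, 6.04 in Nanog-GFP SNEL#3 and 5.71 in Oct4-GFP SNEL#1. OSKM lines were at 5.40 (Nanog-GFP OSKM#2), 5.89 (Oct4-GFP OSKM#2), 5.69 (KH2_OSKM) and 5.85 (BC_2 OSKM), against 5.77, 5.94 and 5.78 in Nanog-GFP, Oct4-GFP and KH2 ESCs. Nanog-GFP OSKM#2 was below all 9 other lines, and its gap to KH2_OSKM, the next line, was 0.30 (adjusted p = 0.00655).

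The 2 Krüppel-like factors varied least. Klf2 was 6.01, 6.17 and 5.72 in Nanog-GFP SNEL#2, Nanog-GFP SNEL#3 and Oct4-GFP SNEL#1. In OSKM lines it was 5.90 (Nanog-GFP OSKM#2), 5.66 (Oct4-GFP OSKM#2), 5.49 (KH2_OSKM) and 5.86 (BC_2 OSKM), against 5.96, 5.88 and 5.96 in Nanog-GFP, Oct4-GFP and KH2 ESCs. Its range was 1.61-fold, with KH2_OSKM below 8 of the 9 other lines by the test. Klf5 ranged over 1.33-fold, from 4.47 in Oct4-GFP SNEL#1 to 4.88 in KH2_OSKM and Nanog-GFP SNEL#3. No neighbours differed for Klf2 or Klf5. Over all 9 members, 12 of 81 neighbouring pairs differed.

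No member passed the test between factor sets or grades. In SNEL minus OSKM lines, 0 of 9 members passed (limma on line averages, Benjamini-Hochberg adjustment over all genes), where the test called 0.00736% of all genes, and 0 had an unadjusted p under 0.05, against 9.4% of all genes. All 9 differences were above 0, with a median of 0.34 against -0.015 for all genes, but the count was 7 of 9 with quantile normalization, with normexp background correction and in the authors' value table. The median was 0.35 within the first slide and 0.52 within the second, with 9 of 9 above 0 in each. The second slide holds no array of Oct4-GFP SNEL#1, so its value leaves that line out and is no check of the full comparison. By the mean of a line's arrays, the 3 SNEL lines had fewer probes well above background (50.1% to 58.8%) than the 4 OSKM lines (61.2% to 67.7%). Single arrays overlapped, at 49.5% and 68% in Oct4-GFP SNEL#1 and 77.2% and 58.3% in KH2_OSKM. Markers of primitive endoderm moved the other way from the members, 14 of 16 being lower with SNEL (median -0.74, 4 at an unadjusted p under 0.05 and 0 called). Their mean level was lowest in Nanog-GFP SNEL#3 and SNEL#2 (-2.00 and -1.95), was -1.04 in Oct4-GFP SNEL#1, and lay between -1.15 and -0.96 in OSKM lines. The part of detection or of these markers in the differences was not tested. Without Nanog-GFP SNEL#2 the median of the members was 0.24, and without Nanog-GFP SNEL#3 it was 0.25. Each left 7 of 9 members above 0 and 0 genes called. Leaving out Oct4-GFP SNEL#1 raised the calls over all genes to 338, against 2 with all lines, and the median of the members to 0.55. Of the 9 members 0 were then called, and 5 had an unadjusted p under 0.05, against 0 with all lines. With line as a random block on the 20 arrays 3 members had one, and 87 genes were called. The share of all genes at an unadjusted p under 0.05 was not computed for these settings, so these counts say nothing particular to the members.

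Nr0b1 came nearest to the threshold. It averaged 4.45 ± 0.48 in SNEL lines and 3.85 ± 0.45 in OSKM lines (SD, n = 3 and 4), a difference of 0.60 (95% interval -0.05 to 1.25, limma adjusted p = 0.549). Foxd3 averaged 0.33 ± 0.84 in SNEL and -0.39 ± 0.43 in OSKM lines, a difference of 0.72 with an interval of -0.32 to 1.75. Zfp42 averaged 5.64 ± 1.35 and 5.61 ± 1.07, and its interval of -1.52 to 1.58 includes changes of more than 2-fold either way. The lines of the 2 factor sets overlapped for every member, while 7.68% of all genes had no overlap.

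Good and high lines against poor lines gave 0 of 9 called, where 0% of all genes were called, and 0 of 9 had an unadjusted p under 0.05, against 5.16% of all genes. The groups overlapped for all 9 members, while 5.83% of all genes had no overlap. Differences were above 0 for 8 members, Nr5a2 being the exception at -0.08, with a median of 0.26 against -0.038 for all genes, and of 0.27 and 0.42 within the first and the second slide. On the second slide the good and high lines did not include Oct4-GFP SNEL#1. Prdm14 had the largest difference, 0.63 (interval -0.15 to 1.42), with 3.70 ± 0.28 in good and high lines and 3.06 ± 0.60 in poor lines (SD, n = 4 and 3). Without Nanog-GFP SNEL#2 the median was 0.12 and the count above 0 was 5 of 9, without Nanog-GFP SNEL#3 they were 0.08 and 7 of 9, and without Oct4-GFP SNEL#1 they were 0.41 and 9 of 9.

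Each grade was also set against the ESC lines, which the 3 comparisons share. Poor lines were above ESC lines for 3 members and below for 6 (median -0.17), good lines above for 6 and below for 3 (median 0.11), and high lines above for 5 and below for 4 (median 0.04). In each of these, 0 of 9 members and 0% of all genes were called by limma. At an unadjusted p under 0.05 there were also 0 members, against 9.75% of all genes for poor, 6.25% for good and 5.89% for high lines. Fibroblast markers were lower than in ESC lines for 15 of 19 genes in poor lines (13 at an unadjusted p under 0.05), 18 of 19 in good lines (14) and 15 of 19 in high lines (1), with 0 called in each, and their part in the members' differences was not tested. The medians of the members rest on single lines. That of poor lines was -0.04 without Nanog-GFP OSKM#2. That of good lines was 0.24 without BC_2 OSKM and -0.07 without Nanog-GFP SNEL#3, and that of high lines was -0.20 with Oct4-GFP SNEL#1 alone and 0.37 with Nanog-GFP SNEL#2 alone. Within the slides they were -0.24 and -0.13 for poor, 0.01 and 0.19 for good, and -0.01, 0.29 and -0.29 for high lines. Of the high lines, the second slide held only Nanog-GFP SNEL#2 and the third only Oct4-GFP SNEL#1.

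Both good lines lay above all ESC lines for Klf5, as 6.63% of all genes did, and both high lines for Prdm14, as 5.85% did. Poor and ESC lines overlapped for all 9 members, while 17.5% of all genes had no overlap. Over all 7 iPSC lines against the 3 ESC lines, 0 of 9 members and 0% of all genes were called, and the median difference of the members was 0 (-0.03, -0.03 and -0.29 within the 3 slides). The only iPSC line on the third slide was Oct4-GFP SNEL#1. No member had an unadjusted p under 0.05, against 9.52% of all genes, and no member's groups failed to overlap, against 4.21% of all genes. Without Oct4-GFP SNEL#1 the calls over all genes were 119, none of them a member. The widest interval there was that of Zfp42 (-1.80 to 0.81), and the narrowest were those of Klf5 (-0.21 to 0.41) and Klf2 (-0.44 to 0.24).

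**Figure D2:**
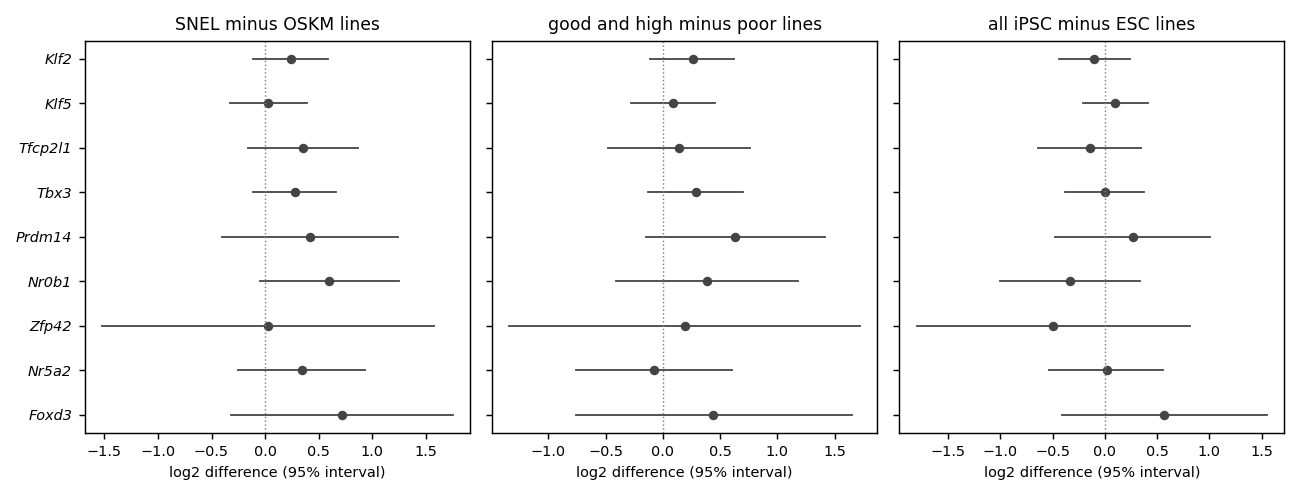
Points are log2 differences between groups of lines for the 9 factors and bars their 95% intervals from limma, for SNEL minus OSKM, good and high minus poor, and all iPSC minus ESC lines. Every interval includes 0, from -1.52 to 1.58 for Zfp42 and -0.33 to 0.39 for Klf5 in SNEL minus OSKM lines.

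Within the Nanog-GFP lines 7 of 9 members were called higher with SNEL, and within the Oct4-GFP lines 1 was, in tests that called 35.1% and 31.5% of all genes in either direction. This contrast sets Nanog-GFP SNEL#2 and #3 against Nanog-GFP OSKM#2, and Oct4-GFP SNEL#1 against Oct4-GFP OSKM#2, so each side of it rests on 1 or 2 lines and its error on the spread between arrays. The SNEL minus OSKM difference itself differed between the reporters for 7 of 9 members, where 35.4% of all genes were called. Nr0b1 differed most, being 0.86 higher with SNEL among Nanog-GFP lines and lower among Oct4-GFP lines (-0.54), a difference of 1.4 ± 0.17 (SE, limma adjusted p = 5.97e-05). With slide as a block that difference was 1.55. Foxd3 gave 0.78 and -0.51, differing by 1.29 ± 0.13 (limma adjusted p = 9.66e-06).

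Tfcp2l1 showed the same opposition, 0.87 among Nanog-GFP lines and -0.26 among Oct4-GFP lines, and the 2 differed by 1.13 ± 0.10 (limma adjusted p = 6.64e-06). Tbx3 was 0.73 higher with SNEL among Nanog-GFP lines, and its -0.18 among Oct4-GFP lines did not pass the test (adjusted p = 0.0861). Klf5 was 0.38 higher among Nanog-GFP lines, and its -0.17 among Oct4-GFP lines did not pass either (adjusted p = 0.158). Prdm14 was higher with SNEL in both, by 1.13 and 0.51, and still differed between the reporters (0.62, adjusted p = 0.000179). Nr5a2 passed narrowly (0.51, adjusted p = 0.0264) and did not pass with quantile normalization (adjusted p = 0.221), the percentile of commonly detected probes, the authors' value table or without Nanog-GFP SNEL#3. Klf2 (adjusted p = 0.398) and Zfp42 (adjusted p = 0.125) were not called, though Zfp42 was called under 4 of 11 other settings. Among Nanog-GFP lines alone Zfp42 was called lower and Nr5a2 was not called (0.15). Among Oct4-GFP lines alone Prdm14 was called higher, Tfcp2l1, Nr0b1, Nr5a2 and Foxd3 were called lower, and the other 4 were not called.

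**Figure D3:**
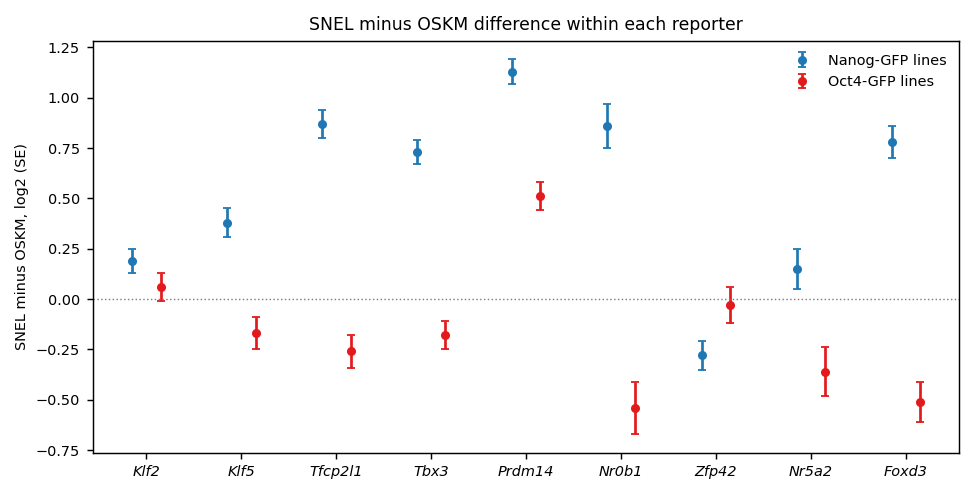
For each factor the SNEL minus OSKM difference (log2, bars are SE from the 20-array fit) is shown among Nanog-GFP lines on the left and Oct4-GFP lines on the right. Nr0b1, Foxd3 and Tfcp2l1 lie above 0 among Nanog-GFP lines and below 0 among Oct4-GFP lines.

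The 2 Nanog-GFP SNEL lines were the 2 highest of all 10 for 6 of 9 members (Klf2, Tfcp2l1, Tbx3, Nr0b1, Nr5a2 and Foxd3), as they were for 8.38% of all genes. This count, made after the values were seen, depended on scaling. It was 3 with quantile normalization and 3 with normexp, where 7.52% and 14.2% of all genes had that order, and 4 in the authors' value table. Tbx3, Nr5a2 and Foxd3 held it under the 7 other settings of scaling, filter and probe mean, but the second Nr5a2 probe did not, being highest in Nanog-GFP ESCs (-0.01) and Oct4-GFP OSKM#2 (-0.07) and at -0.17 in both Nanog-GFP SNEL lines. The second Tfcp2l1 probe did not hold it either, with Nanog-GFP SNEL#2 (4.36) just below Oct4-GFP ESCs (4.37). By the mean of their arrays, Nanog-GFP SNEL#3 and #2 were also the lines with the fewest probes well above background (50.1% and 57.3%). The first array of Oct4-GFP SNEL#1 was at 49.5%. The part of detection was not tested.

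Set against the ESC line of the same name, the iPSC lines moved in different directions. Nanog-GFP SNEL#3 had 6 members higher and 1 lower than Nanog-GFP ESCs (limma, 39% of all genes called), and Nanog-GFP SNEL#2 had 4 higher and 0 lower (33.3% of all genes). Nanog-GFP OSKM#2 had 2 higher and 5 lower than the same ESC line (32.7% of all genes), which these 3 comparisons share. In that ESC line the Y-linked gene Ddx3y was at -8.08, against 0.94, 0.93 and -0.10 in Nanog-GFP OSKM#2, SNEL#2 and SNEL#3. The part of sex chromosomes in these differences was not tested. Oct4-GFP SNEL#1 had 2 higher and 4 lower (36.7% of all genes) and Oct4-GFP OSKM#2 had 2 higher and 2 lower (20.7%) than Oct4-GFP ESCs. KH2_OSKM had 1 higher and 4 lower than KH2 ESCs (43.3%).

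The 2 lines of each pair shared 1 slide and otherwise lay on different slides. On the shared slide all 33 called differences had the same sign, and with slide as a block 0 of these calls were lost and 0 gained, an alternative chosen after seeing the data. The arrays on the shared slide were among those that made the calls, so equal signs were likely in advance and are no separate check. Nr0b1 was nearest to the threshold, at -0.38 in Nanog-GFP OSKM#2 minus Nanog-GFP ESCs (limma adjusted p = 0.045). On their shared slide it was 3.82 against 4.10, and with slide as a block the difference was -0.24 (limma adjusted p = 0.00301).

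Foxd3 was above its ESC line in 5 of these 6 pairs, by 0.54 to 1.46, and below it in KH2_OSKM (-0.93, limma adjusted p = 8.03e-06). These 5 pairs are not separate, since they share Nanog-GFP ESCs or Oct4-GFP ESCs. Oct4-GFP ESCs was the lowest of all lines for Foxd3 (-1.45). Zfp42 fell in Oct4-GFP OSKM#2 and Oct4-GFP SNEL#1 relative to Oct4-GFP ESCs, with differences of -1.97 and -2.01 (limma adjusted p = 3.99e-08 and 1.1e-08), but rose in Nanog-GFP OSKM#2 (0.70) and Nanog-GFP SNEL#3 (0.61) relative to Nanog-GFP ESCs. Prdm14 had the opposite signs in those 4 pairs, at 0.84 and 1.35 in the Oct4-GFP iPSC lines, -1.30 in Nanog-GFP OSKM#2 and -0.36 in Nanog-GFP SNEL#3. For Prdm14 the shared Oct4-GFP ESCs was at 2.64, and only Nanog-GFP OSKM#2 was lower. Nr5a2 was called in none of the 6 pairs.

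**Figure D4:**
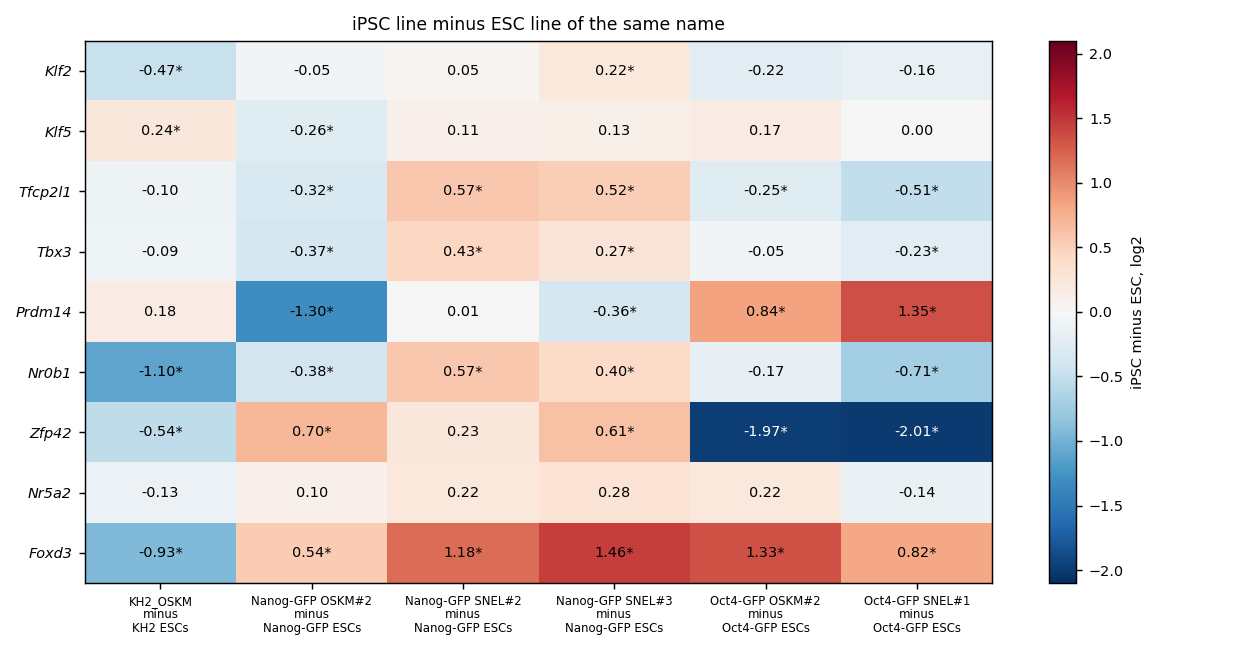
Each cell gives the log2 difference of an iPSC line minus the ESC line of the same name for 1 factor, and a star marks an adjusted p under 0.05 (limma, 20 arrays). Zfp42 is at -1.97 and -2.01 in the Oct4-GFP pairs. Foxd3 is above 0 in 5 of 6 pairs, which share Nanog-GFP ESCs or Oct4-GFP ESCs.

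Genes close to Zfp42 on chromosome 8 were examined after the values were seen, because the gene most like it over the lines, Frg1, lies there. Zfp42 lies at chr8:44380667-44380726 by its probe (mm9). Frg1, 1894 kb away, was at 1.32 in Oct4-GFP SNEL#1 and 1.53 in Oct4-GFP OSKM#2, against 2.44 to 2.95 in the other 8 lines. Triml2, the nearest measured gene at 102 kb, was at 3.36 and 2.99 in those lines, against 3.66 to 4.33 in the others. Triml1, at 165 kb, was at 2.69 and 3.19, and its lowest line was Oct4-GFP ESCs at -1.96.

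Of 91 other measured genes within 5 Mb, 11 (12.1%) had both Oct4-GFP iPSC lines as the 2 lowest, against 3.63% of all genes. Frg1, which led to this window, is one of them, and without it the count was 10 of 90 (11.1%). The gap between those lines and the next ran from 0.04, for a probe named by its position, to 1.23 for BB211804. Some of the 11 lay at low levels with small gaps, as Gm6284 did (-7.36 and -7.28, gap 0.11). Whether the order of lines holds at such gaps was not tested. The median deviation of these 91 genes was nevertheless near that of other lines, at -0.07 in Oct4-GFP SNEL#1 and -0.09 in Oct4-GFP OSKM#2, within a range of -0.18 to 0.42. A gap of at least the 1.59 seen for Zfp42 between those 2 lines and the next was found for 5 other genes. They were Rbbp9 (7.16), 5730437C12Rik (3.36) and Mgme1 (3.21) on chromosome 2, Pnp2 (4.33) on chromosome 14 and Inhbc (1.78) on chromosome 10. With Zfp42 they made up 0.0221% of all genes. Over the whole of chromosome 8, where Klf2 also lies, the median deviation was 0.21 in Nanog-GFP OSKM#2, 0.12 in Oct4-GFP ESCs and 0.08 in KH2_OSKM, and between -0.07 and -0.03 in the other lines.

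**Figure D5:**
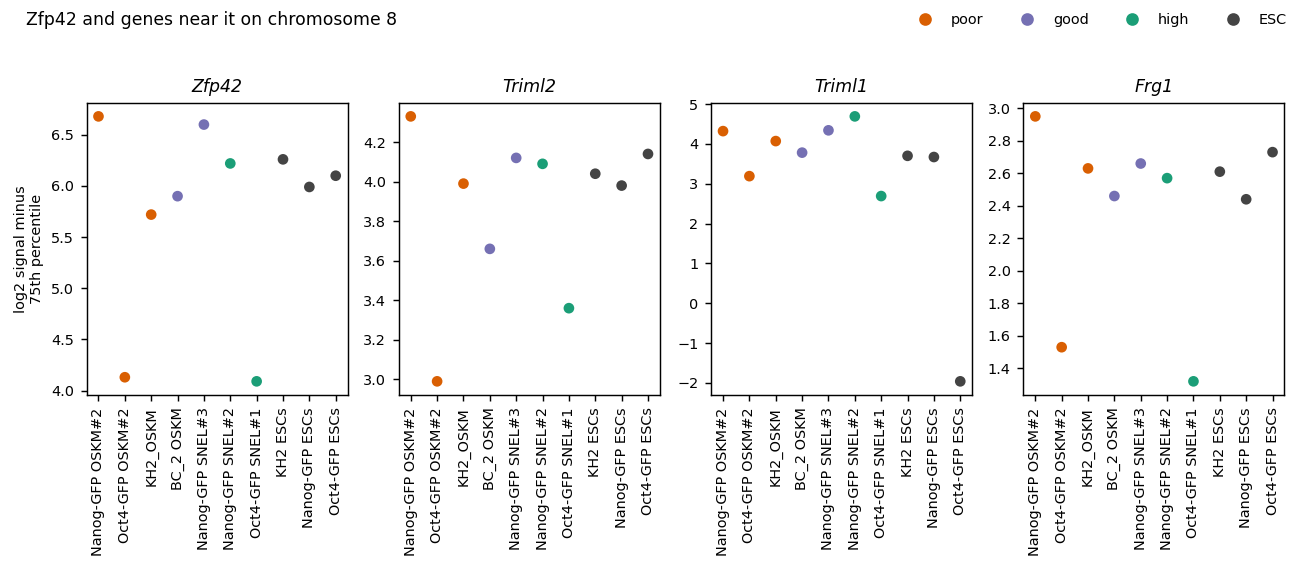
Line means (log2 signal minus the array's 75th percentile) of Zfp42, Triml2, Triml1 and Frg1 in the 10 lines, coloured by grade. Oct4-GFP OSKM#2 and Oct4-GFP SNEL#1 are the 2 lowest lines for Zfp42, Triml2 and Frg1, and Oct4-GFP ESCs is lowest for Triml1 at -1.96.

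Markers of the 2-cell-like state, a rare state of ESCs marked by the Zscan4 genes, had their highest mean level in the same pair of lines, 0.21 in Oct4-GFP SNEL#1 and -0.08 in Oct4-GFP OSKM#2, against -3.23 to -1.03 elsewhere (9 of 12 markers measured). These were the 2 highest lines for 6 of the 9 (Zscan4c, Zscan4f, Tcstv1, Tcstv3, Usp17lb and Usp17lc), and not for Usp17la, Zfp352 and Eif1a. The share of all genes with these 2 lines highest was not computed. Oct4-GFP SNEL#1 was the lowest line for Usp17la (-4.76), and both lines were among the 3 lowest for Zfp352 (2.31 and 2.30). Zscan4c was at 2.70 and 1.95 in them, and at 0.53 in Nanog-GFP OSKM#2, which had the highest Zfp42 level. Fibroblast markers averaged -1.16 in Oct4-GFP SNEL#1 and -3.35 in Oct4-GFP OSKM#2, with -3.81 to -2.65 in the other 5 iPSC lines, against -1.58 to -0.89 in ESC lines. Pou5f1, the gene that carries the Oct4-GFP reporter's name, was lower in all 3 Oct4-GFP lines (5.35, 5.55 and 5.35 in SNEL#1, OSKM#2 and ESCs) than in the others (6.31 to 6.70). The part of these in the Zfp42 level was not tested.

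The other genes of the naive network, a list of 25 partners such as Pou5f1, Nanog, Esrrb and Klf4, were all measured. Among the 10 lines 23 of 25 differed, where 61.5% of all genes did, and their median standard deviation over lines was 0.25, against 0.36 for all genes. In SNEL minus OSKM lines 20 were higher and 5 lower (median 0.14), in good and high minus poor lines 21 higher and 4 lower (median 0.11), and 0 of 25 were called in any of the 6 comparisons by limma, with 0 to 1 at an unadjusted p under 0.05 in each, against 5.16% to 9.75% of all genes. Klf4, one of the 20 higher with SNEL, was 5.67, 5.57 and 4.84 in Nanog-GFP SNEL#2, Nanog-GFP SNEL#3 and Oct4-GFP SNEL#1, against 4.38, 4.58, 5.10 and 5.28 in Nanog-GFP OSKM#2, Oct4-GFP OSKM#2, KH2_OSKM and BC_2 OSKM. In Nanog-GFP, Oct4-GFP and KH2 ESCs it was 5.14, 4.55 and 5.17. Nanog, one of the 5 lower with SNEL, was 6.81, 6.72 and 7.44 in the SNEL lines and 6.77, 7.29, 7.11 and 7.20 in the OSKM lines, in the same order. Its ESC levels were 7.14, 7.17 and 7.19.

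The levels of the members were compared with each other over the 10 line means, as a description of these lines. Of 36 pairs of members, 30 had a Pearson r above 0, with a median of 0.32. Tfcp2l1 and Tbx3 were most alike (r = 0.76), followed by Tbx3 and Nr0b1 (r = 0.71), and Prdm14 and Zfp42 were least alike (r = -0.53). All points share the scaling of their arrays, and the 10 lines include several of 1 reporter.

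Among 18489 other genes well above background on all arrays, the closest patterns were those of Sema6c and Naca for Klf2 (r = 0.983 and 0.952), Ptov1 and Wdr5 for Nr0b1 (0.986 and 0.979), and Rbks and Cyb5d2 for Prdm14 (0.973 and 0.949). Zfp42 was most like Frg1 and Rrbp1 (0.966 and 0.957) and Foxd3 was most like Mycn (0.953). Klf5 was closest to Gm13226 and Gcnt2 (0.930 and 0.928), Tfcp2l1 to a probe named by its position and Prep (0.948 and 0.943), Tbx3 to ENSMUST00000106975 and Snx30 (0.948 and 0.933), and Nr5a2 to Dnajc6 (0.941). The second gene for Foxd3 and for Nr5a2 was also a probe named by its position.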

How the data were processed

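Feature Extraction 10.1.1.1 made the 20 one-colour scanner files on design 028005, per the file headers, and its background-subtracted processed signal intensity was used as deposited. Probe coordinates follow mm9. Log2 values in the deposited table ranked probes exactly as the scanner's median signal did (Spearman 1), so they are not centred by gene. How their medians were brought to 6.27 to 6.28 is not given in the sources used here. That table served as an alternative.

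Repeated spots were averaged, controls and outlier-flagged values (touching 563 probes) left out, and log2 signals scaled by each array's 75th percentile. The filter asked for a signal well above background on 4 or more of the 20 arrays, which 38756 probes passed, and a gene was read from its brightest probe. Detection ran from 48.9% to 77.2% of probes per array. Precision is limited by how few lines and arrays there are. Arrays of a line correlated at 0.971 to 0.990.

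Limma 3.58.1 in R 4.3.3 (data.table, version 1.17.8) fitted line averages for 6 group comparisons, and the 20 arrays for differences among lines, pairs of lines and reporters. P-values were adjusted over all genes (Benjamini-Hochberg), with a threshold of 0.05. The fits were tested on simulated data. All members were named throughout. Other genes were named as the 2 most similar over the lines, as list genes past the threshold in a comparison, at most 4 a list, or as sex-linked context. Dnmt3a, Dnmt3b, Klf4, Nanog, the 2-cell-like markers, Pou5f1 and the genes near Zfp42 or with a like gap were chosen after their values were seen. The members and lists were chosen with earlier results of these data known. Alternatives covered scaling, background correction, the filter, the probe rule, slide, replicate and line blocks, and leaving out lines.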

Additional observations from a re-analysis of the deposited data

Results flagged for a closer look

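Prdm14 was at 2.38 in Nanog-GFP OSKM#2, far below the other 6 iPSC lines: the gap to the next line was 0.59 of the whole range. Of 18 groups of lines examined in this way, 1 had such a sample, and chance flags about 1 in 20 groups.

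The SNEL minus OSKM difference was not the same among Nanog-GFP and Oct4-GFP lines for 7 members by the test of that difference. The Nanog-GFP value minus the Oct4-GFP value was 0.55 for Klf5, 1.13 for Tfcp2l1, 0.91 for Tbx3, 0.62 for Prdm14, 1.4 for Nr0b1, 0.51 for Nr5a2 and 1.29 for Foxd3, where 35.4% of all genes passed. Each side holds 1 or 2 lines, so line and factor set cannot be told apart.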

How the results depend on the processing

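Under all 20 alternatives run for each of the 6 group comparisons, 0 of 9 members were called (adjusted p from 0.164 to 1). Of 1080 such member values, 1014 kept their direction. Calls over all genes ranged from 0 to 42 for poor minus ESC lines (0 as reported), 0 to 9 for good minus ESC (0), 0 to 8 for high minus ESC (0), 0 to 6 for good and high minus poor (0), 0 to 338 for SNEL minus OSKM (2) and 0 to 119 for all iPSC minus ESC lines (0). The 9 members differed among lines under all 19 alternatives. The difference between reporters was called for 6 or 7 members: Klf5 was not called in the authors' value table (adjusted p = 0.0653), and Nr5a2 and Zfp42 changed call as given above. With the replicate block on the 20 arrays, 0 members were called in each group comparison, 9 among lines and 7 between reporters, and 13 of 81 neighbouring pairs of lines differed. Over all 9 alternatives for these pairs, chosen after seeing the data, 9 to 18 differed (12 as reported). Same-numbered arrays of different groups deviated from their group means with a mean correlation of 0.047 (-0.48 to 0.52), against -0.046 (-0.54 to 0.42) for other-numbered arrays. The numbers were not treated as pairs. These deviations also hold the differences between lines of a group, so they cannot settle whether the numbers carry a pairing. Within single slides 103 of 126 member differences kept their sign and 14 lay over 1 SD from the reported value, all of them in high or all iPSC minus ESC lines, where a slide holds few lines.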
